A study of Zea mays with 12 samples.

Results

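Nitrate and nitrite reductases catalyse the first steps by which a leaf turns soil nitrate into amino acids. The 5 genes described here were taken by identifier from the deposited table of 110005 gene models. They are the nitrate reductase genes NNR1 (GRMZM2G568636), NAR (GRMZM5G878558) and GRMZM2G428027, and the nitrite reductase genes NIR (GRMZM2G079381) and GRMZM2G102959. RefSeq had an entry for 3 of the 5. The remaining 2, GRMZM2G428027 and GRMZM2G102959, are known here as reductase genes only by the annotation used to choose them. The rule that names them uses no measured value, but it was set with earlier results of these data known.

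RNA-seq libraries were made from 2 cell types of the maize leaf, bundle sheath (BS) and mesophyll (M), both taken from the third leaf of 9-day-old seedlings. The plants were of the inbred Mo17 by the labels, whereas the paper's methods name both Mo17 and B73. Reads were assigned to gene models of B73, and what a mismatch of inbreds does to the values was not tested. Cells were cut from fixed leaf sections by laser microdissection, and their RNA was amplified by 1 round before sequencing. BS and M were each captured at 3 stages along the leaf, the sink-source transition (SST, section 4, at -1 cm), maturing (section 9, at 4 cm) and mature (section 14, at 9 cm, the tip), with positions measured from the completed transition. Each of the 6 groups had 2 libraries, 12 in all. No treatment was applied, and the labels do not say whether the 2 libraries of a group came from separate plants, so the p-values measure only the spread between these libraries, which may be technical.

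Nitrate reductase is a cytosolic enzyme that passes electrons from NADH or NADPH through FAD, haem and a molybdenum cofactor to nitrate, giving nitrite. Nitrite, which is toxic, is reduced further to ammonium in the plastid by nitrite reductase, a sirohaem enzyme that takes its electrons from ferredoxin. In maize and other C4 grasses nitrate reduction is known as an M activity, while glutamine synthetase, which captures the ammonium, is found in both cell types.

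Levels are given as scaled FPKM, fragments per kilobase of transcript and unit of mapped library, after all libraries had been given the same upper quartile, 2.557 FPKM. FPKM is per length, so levels may be set side by side between genes, but amplification draws reads toward the 3′ end of transcripts, which limits such comparisons. Differences are fitted log2 BS/M or log2 of a later over an earlier stage, from limma on log2(scaled FPKM + 0.256), and a gene passed the test where the Benjamini-Hochberg adjusted p was below 0.01 over the 32548 genes tested. All 5 reductase genes passed the filter on low values. In bulk libraries of this kind less transcript per cell and fewer expressing cells cannot be told apart. Estimated depth differed up to 3.66-fold between libraries, with the SST M libraries the shallowest (0.646 and 0.702 times the first SST BS library) and the 4 maturing libraries the deepest (2.31 to 2.36 times). The 4 M markers (PEPC, PPDK, carbonic anhydrase and NADP-MDH) summed to 8402 to 22533 scaled FPKM in BS libraries and to 21830 to 51742 in M libraries. The 4 BS markers (NADP-ME, PEPCK, the Rubisco small subunit gene ssu1 and Rubisco activase) summed to 8194 to 31785 in BS libraries and to 762.1 to 2397 in M libraries. No marker of either list was at 0 in any library, and both lists lay on the side their labels give at each stage.

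NNR1 was the most abundant nitrate reductase transcript in all 12 libraries, and it was lower in BS than in M at every stage. Its level was 9.36 and 9.93 scaled FPKM in the 2 SST BS libraries, against 45.8 and 57.1 in SST M. At the maturing stage it was 25.5 and 30.6 in BS, against 131 and 130 in M. In the mature section it was 123 and 44.6 in BS, against 291 and 256 in M. No BS library overlapped an M library of the same stage, and the mean was 5.33-fold lower in BS at SST, 4.65-fold lower at maturing and 3.26-fold lower at mature. The fitted log2 BS/M was -2.38 at SST (SE 0.39, limma adjusted p = 0.0096) and -2.21 at maturing (adjusted p = 0.0066). The mature value of -1.88 did not pass (adjusted p = 0.0166).

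The mature BS value of NNR1 rests on 2 libraries that differed 2.76-fold. The first mature BS library was also the higher of the pair for all 4 M markers, by 1.5-fold for PPDK up to 1.99-fold for NADP-MDH, and for the epidermis markers ocl1 (3.46-fold) and gl1 (2.12-fold). The 4 BS markers were lower in that library, at 0.612 to 0.805 times the second. The part of these cell type differences in the NNR1 level was not tested. Without the first mature BS library the mature log2 BS/M of NNR1 was -2.61, and without the second it was -1.15. Each of these 2 fits keeps a single mature BS library and so holds no spread within that group. No p is given for them.

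**Figure D1:**
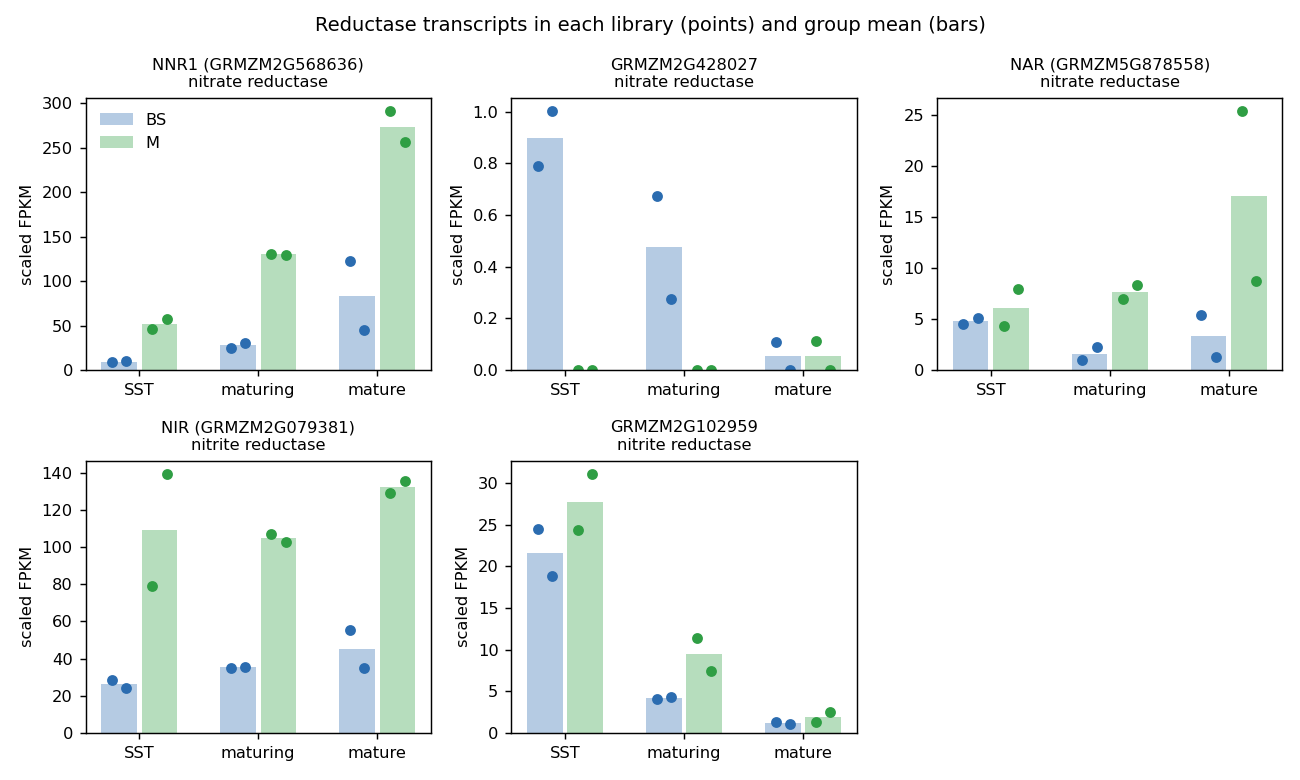
Scaled FPKM of the 5 reductase genes (y axis, linear, a separate scale for each gene) at SST, maturing and mature (x axis), with BS in blue left of M in green. Points are the 2 libraries of a group and bars their mean. NNR1 and NIR were lower in every BS library than in the M libraries of the same stage, GRMZM2G102959 had a lower mean at each later stage in both cell types, and GRMZM2G428027 reached at most 1.00 scaled FPKM.

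NIR, the main nitrite reductase transcript, was lower in BS by a similar margin and passed the test at all 3 stages. It stood at 28.7 and 24.4 scaled FPKM in SST BS, against 79.2 and 139 in SST M. At maturing it was 34.98 and 35.39 in BS, against 107 and 102 in M. At mature it was 55.4 and 35.2 in BS, against 129 and 135 in M. Again no BS library reached the M libraries of its stage. The mean was 4.12-fold lower in BS at SST, 2.98-fold at maturing and 2.92-fold at mature, and log2 BS/M was -1.98 (SE 0.28, limma adjusted p = 0.0053), -1.57 (adjusted p = 0.0073) and -1.58 (adjusted p = 0.0094). The mature BS pair differed 1.57-fold for NIR, in the same direction as for NNR1. Without the second mature BS library, which leaves 1 in that group, the mature value was -1.25.

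Of the 5 reductase genes, 2 were lower in BS by this test at SST (NNR1 and NIR), where 1.44% of all genes tested were called lower in BS. At maturing the same 2 genes were lower, against 3.56% of all genes, and at mature NIR alone was, against 2.07%. In the fit of all 12 libraries on scaled values no reductase gene was called higher in BS at any stage, against 1.64%, 4.82% and 3.66% of all genes at SST, maturing and mature. Over the 5 genes the median log2 BS/M in stage order came to -0.36, -1.57 and -1.58, while the median over all genes tested was 0 at each stage. The adjusted p of NNR1 and NIR lay close to the threshold and often crossed it among 22 alternative settings. Many of these settings cannot move log2 BS/M itself. A change of filter, trend, threshold, fit or block keeps the fitted value, and so does leaving out a library of another stage. Scaling, pseudocount and a left-out library of the same stage can move it. In stage order it then ranged over -2.53 to -2.22, -2.34 to -2.05 and -2.61 to -1.15 for NNR1. For NIR it ranged over -2.39 to -1.57, -1.60 to -1.40 and -1.90 to -1.25. A fit that leaves out 1 library keeps 1 in that group, so its p takes the spread from the other groups alone. For NNR1, leaving out a mature BS library takes the difference of that pair out of the shared spread. Of the 12 fits that each left out 1 library, the NNR1 calls at SST and maturing held only in those without a mature BS library (limma adjusted p = 0.00037 to 0.00089), and the adjusted p was 0.0176 to 0.0573 in the others. The NIR calls held in 3 of these fits at SST (without the first SST M or either mature BS library), in 4 at maturing (without an SST M or a mature BS library) and in 3 at mature (without an SST M or the first mature BS library), with adjusted p up to 0.0557 otherwise. With deposited values in place of scaled ones, log2 BS/M at maturing was -2.05 for NNR1 (limma adjusted p = 0.0105) and -1.40 for NIR (adjusted p = 0.0122), which do not pass. The NNR1 call at SST was also lost with deposited values (adjusted p = 0.0101) and with median-of-ratios scaling (adjusted p = 0.0105). The 13609 genes of at least moderate abundance had a median log2 BS/M of -0.15 at maturing after scaling and of 0 before it, and both genes lay well below either value.

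**Figure D2:**
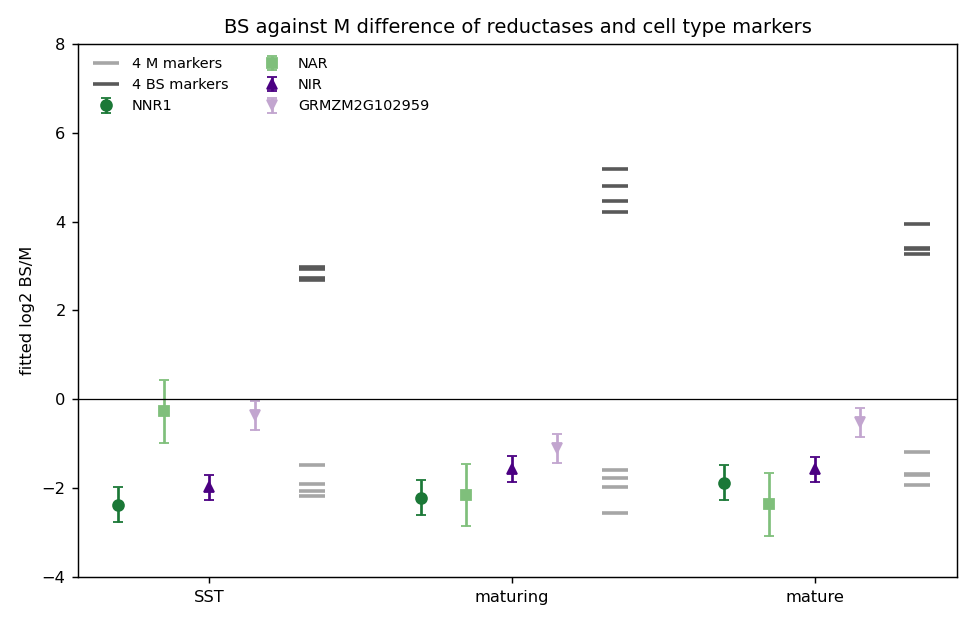
Fitted log2 BS/M (y axis) at the 3 stages (x axis) for 4 reductase genes, with bars of 1 standard error, beside the values of the 4 M markers and the 4 BS markers as dashes. NNR1 and NIR lay between -2.38 and -1.57, in the range of the M markers (-2.56 to -1.20). In contrast GRMZM2G102959 lay between -1.10 and -0.36. GRMZM2G428027 is not drawn because M was listed at 0 at SST and maturing.

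The BS to M differences of NNR1 and NIR were of the size seen for the M markers. PEPC, the first carboxylase of the C4 cycle, had log2 BS/M of -2.07, -2.56 and -1.71 at SST, maturing and mature, and carbonic anhydrase, which supplies its bicarbonate, had -1.90, -1.97 and -1.68. NADP-MDH, which reduces oxaloacetate to malate in M chloroplasts, had -2.19, -1.78 and -1.93. PPDK had the smallest difference of the 4 M markers at each stage, with means 2.81-fold, 3.03-fold and 2.26-fold lower in BS. Since M marker transcripts were also present in the BS libraries, at 14991 to 22533 summed scaled FPKM in mature BS against 38548 and 47276 in mature M, the share of reductase transcripts in BS libraries that came from BS cells cannot be told apart from M material in the capture. The 2 epidermis markers summed to 0.901 to 5.60 scaled FPKM in BS libraries and to 4.57 to 15.6 in M libraries, the same side as NNR1 and NIR, and their part in the reductase differences was not tested. Of 4 vascular markers, sut1 was 14.4-fold, 76.4-fold and 5.29-fold higher in BS in stage order, while cesa10 overlapped between cell types at each stage. The vascular markers cesa11 and cesa12 averaged only 0.0196 and 0.349 scaled FPKM over all libraries. The part of vascular material in the reductase values was not tested.

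NAR, the minor nitrate reductase, was spread more widely between libraries. At SST it was 4.57 and 5.10 scaled FPKM in BS, against 4.37 and 7.92 in M, so the cell types overlapped. At maturing it was 0.996 and 2.27 in BS, against 7.02 and 8.35 in M, and at mature 5.45 and 1.27 in BS, against 25.4 and 8.71 in M. The libraries of the 2 cell types did not overlap at these later stages, with means 4.71-fold and 5.08-fold lower in BS. None of the 3 differences passed the test, with log2 BS/M of -0.27 at SST (SE 0.70, limma adjusted p = 0.974), -2.16 at maturing (adjusted p = 0.0796) and -2.36 at mature (adjusted p = 0.0616). Between the 2 libraries of a group NAR differed up to 4.29-fold, in mature BS, and the first mature BS library was again the higher one.

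GRMZM2G428027 was measured at very low values and is the one reductase gene that was listed higher in BS. Its deposited FPKM was 0.870 and 1.08 in SST BS, whereas both SST M libraries were listed at 0. At maturing it was 0.695 and 0.271 in BS and again 0 in both M libraries. At mature it was 0.105 and 0 in BS, against 0.113 and 0 in M. Each value was multiplied by the relative depth of its library, to stand in proportion to reads. The SST BS values were then 9.47 and 10.97 times the smallest value above 0, that of the first mature BS library. The maturing BS values, from deeper libraries, were 17.5 and 6.97 times that smallest value, though their FPKM was below that of SST BS. If that smallest value stands for at least 1 read, these are lower limits on the reads behind them. The maturing M libraries, listed at 0, were as deep as the maturing BS libraries. The difference did not pass at SST (limma adjusted p = 0.0111) or maturing (adjusted p = 0.0320). At SST GRMZM2G428027 passed as higher in BS with deposited values (limma adjusted p = 0.0095) and with median-of-ratios scaling (0.0090). It also passed with a pseudocount of 1 (0.0094) and without the trend (0.0095), but not without the filter on low values (0.0134). The gene met that filter only through its means in SST BS (0.897 scaled FPKM) and maturing BS (0.475). Those are the same groups in which it was listed higher. The SST M and maturing M libraries, all listed at 0, added no spread of their own to the shared spread. The p-values of this gene were therefore not read as a difference between cell types. The adjusted p over the alternatives that keep all libraries was 0.0090 to 0.0381 at SST, and no fold is given against groups listed at 0. Of the 13609 moderately abundant genes 2471 were at 0 in at least 1 library, so a listed 0 need not mean that no transcript was present.

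The second nitrite reductase gene, GRMZM2G102959, changed mainly along the leaf. At SST it was 24.5 and 18.8 scaled FPKM in BS, against 24.4 and 31.2 in M, levels close to NIR in SST BS. At maturing it was 4.09 and 4.28 in BS, against 11.4 and 7.49 in M. At mature it was 1.34 and 1.02 in BS, against 1.28 and 2.48 in M. The cell types overlapped at SST and mature but not at maturing, and log2 BS/M was -0.36 (SE 0.33, limma adjusted p = 0.584), -1.10 (adjusted p = 0.0575) and -0.52 (adjusted p = 0.363), none of which passed.

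GRMZM2G102959 had a lower mean at each later stage in both cell types. In BS the mature mean was 18.3-fold lower than at SST, and in M it was 14.8-fold lower, with no overlap between successive stages in either. In BS the maturing mean was 5.17-fold lower than at SST (log2 -2.29, SE 0.33, limma adjusted p = 0.0019), and the mature mean was 3.55-fold lower than at maturing (log2 -1.64, adjusted p = 0.0077). In M the mature mean was 5.03-fold lower than at maturing (log2 -2.21, adjusted p = 0.0018). The M step between maturing and SST, 2.94-fold lower, did not pass at log2 -1.55 (adjusted p = 0.0144), though with deposited values GRMZM2G102959 passed here at -1.79 (adjusted p = 0.0070). Leaving out 1 library at a time, the first BS step was lost without any of the 4 libraries it compares (adjusted p up to 0.0193) and the second in all fits but those without a mature M library (adjusted p up to 0.0493). The M step between mature and maturing was lost without the first maturing M (adjusted p = 0.0182) or the first mature M library (adjusted p = 0.0101). Scaling left a median shift of 0.23 in M and 0.25 in BS between maturing and SST over moderately abundant genes, against which these steps run in the opposite direction. Of the 5 reductase genes this one alone was called in a step along the leaf. Between maturing and SST it was 1 of 5 lower in BS against 5.01% of all genes, and in M 0 of 5 were called against 8.35%. Between mature and maturing it was 1 of 5 lower in BS against 6.57%, and 1 of 5 lower in M against 6.95%.

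NNR1 moved the other way, with means that were higher at each later stage in both cell types. In BS the maturing mean was 2.90-fold that of SST (log2 1.51, SE 0.39, limma adjusted p = 0.0282) and the mature mean 2.99-fold that of maturing (log2 1.40, adjusted p = 0.0325). In M the steps were 2.53-fold (log2 1.34, adjusted p = 0.0494) and 2.1-fold (log2 1.07, adjusted p = 0.0861). No 2 successive stages overlapped in either cell type, and the mature mean was 8.69-fold that of SST in BS and 5.32-fold that of SST in M. None of the 4 steps passed the threshold in the fit of all 12 libraries. Without the first mature BS library the fitted BS steps of NNR1 were 1.51 and 0.67, and without the second they were 1.51 and 2.13. The M steps stayed at 1.34 and 1.07 in both fits, since no M library changed. In these fits the difference of the mature BS pair no longer enters the shared spread, so no p is read from them.

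NIR and NAR showed no step that passed. NIR had log2 steps of 0.41 (limma adjusted p = 0.372) and 0.33 (adjusted p = 0.470) in BS, and of -0.00 (adjusted p = 1) and 0.33 (adjusted p = 0.463) in M. NAR had -1.52 (adjusted p = 0.187) and 0.73 (adjusted p = 0.521) in BS, and 0.36 (adjusted p = 0.858) and 0.94 (adjusted p = 0.395) in M. GRMZM2G428027 had -0.71 (adjusted p = 0.233) and -1.21 (adjusted p = 0.0473) in BS.

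In ascending order of its 6 group means NNR1 ran from SST BS (9.64 ± 0.402 scaled FPKM, SD, n = 2) through maturing BS (28.0 ± 3.61), SST M (51.4 ± 7.99), mature BS (83.8 ± 55.4) and maturing M (130.2 ± 0.441) to mature M (274 ± 25.0). Of these neighbours, mature BS and SST M overlapped. NIR formed a BS tier of SST (26.5 ± 3.03), maturing (35.2 ± 0.288) and mature (45.3 ± 14.3), in which maturing and mature overlapped, and an M tier of maturing (105 ± 3.34), SST (109 ± 42.7) and mature (132 ± 4.48), in which each overlapped its neighbour. NAR ran from maturing BS (1.63 ± 0.900) up to maturing M (7.69 ± 0.939) with each group overlapping the next, and mature M (17.1 ± 11.8) stood above them. GRMZM2G102959 was ordered by stage instead of by cell type, with mature BS (1.18 ± 0.221) and mature M (1.88 ± 0.848) overlapping at the bottom and SST BS (21.6 ± 4.0) and SST M (27.8 ± 4.79) overlapping at the top.

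Whether the BS to M difference itself varied along the leaf was tested by the change of log2 BS/M between successive stages. For NNR1 the change was 0.16 between maturing and SST (limma adjusted p = 0.963) and 0.34 between mature and maturing (adjusted p = 0.813). For NIR it was 0.41 (adjusted p = 0.660) and -0.01 (adjusted p = 1). NAR had the largest fitted change, -1.88 between maturing and SST (adjusted p = 0.428). None of the 5 genes passed in either test, in which 0.307% and 0.934% of all genes were called.

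The make-up of each family differed between the youngest and the later sections. In SST BS, NNR1 gave 62.8% of the summed nitrate reductase level, NAR 31.4% and GRMZM2G428027 5.81% (means of 2 libraries). In SST M, NNR1 gave 89.6%. At the later stages NNR1 gave 93.1% to 96.5% in all 4 groups. For the nitrite reductases, GRMZM2G102959 gave 44.8% of the sum in SST BS, against 20.9% in SST M. Its share at maturing was 10.6% in BS, against 8.22% in M, and at mature 2.59% in BS, against 1.39% in M. The SST BS libraries thus had the most even mix in both families, at 43.5% and 46.0% for GRMZM2G102959, and no other library exceeded 23.5%.

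**Figure D3:**
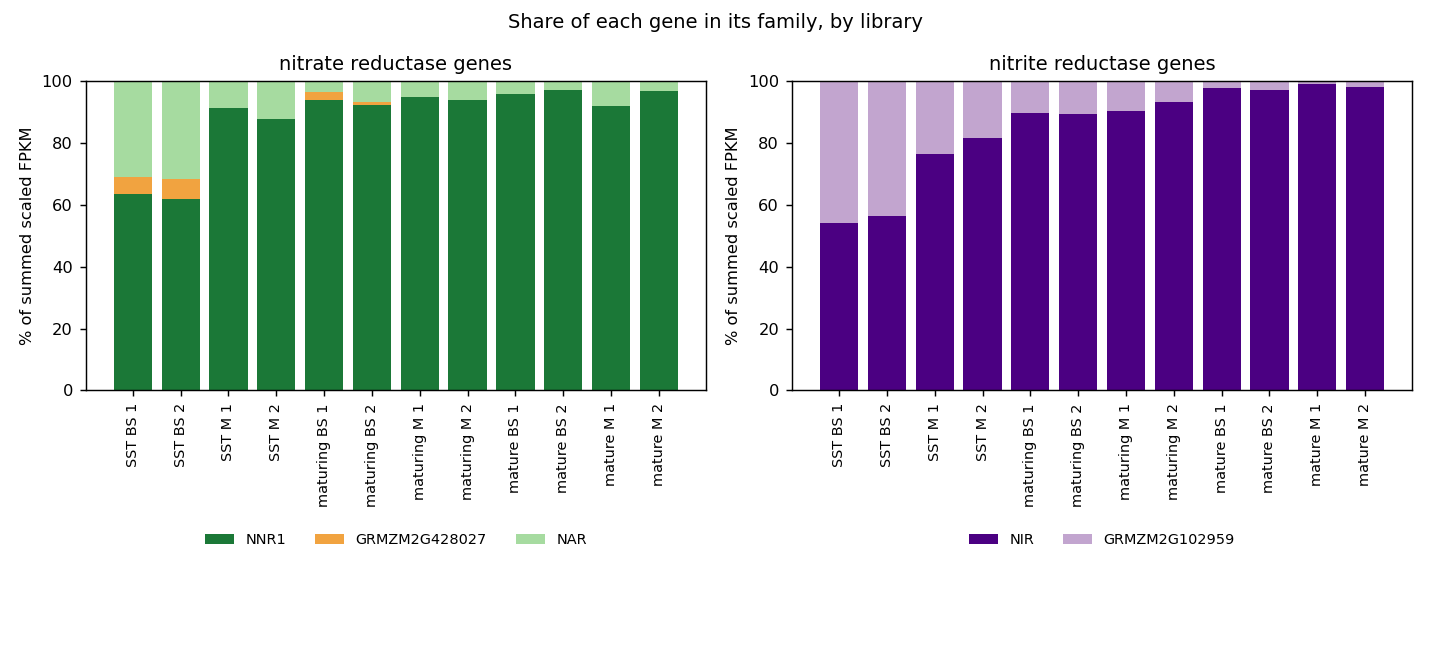
Share of each gene in the summed scaled FPKM of its family (y axis, percent, from 0) in each of the 12 libraries (x axis, stage, cell type and replicate), nitrate reductases on the left and nitrite reductases on the right. The share of GRMZM2G102959 was 43.5% to 46.0% in SST BS and 0.982% to 2.83% in the mature libraries.

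Summed by family, the 2 nitrite reductases had overlapping or nearby levels along the leaf, while the 3 nitrate reductases had higher sums at each later stage. The nitrite reductase sum averaged 48.2 ± 7.04 scaled FPKM in SST BS, 39.4 ± 0.417 in maturing BS and 46.5 ± 14.5 in mature BS (SD, n = 2), and 137 ± 47.4, 114 ± 6.12 and 134 ± 5.33 in M at the same stages. The nitrate reductase sum averaged 15.4 ± 0.927, 30.1 ± 4.23 and 87.2 ± 58.4 in BS, and 57.6 ± 10.5, 138 ± 0.498 and 291 ± 36.9 in M. The ratio of the nitrate to the nitrite reductase sum within a library does not depend on library scaling. At SST the ratio was 0.277 and 0.371 in BS, against 0.484 and 0.381 in M. At maturing it was 0.694 and 0.835 in BS, against 1.16 and 1.26 in M. At mature it was 2.27 and 1.27 in BS, against 2.43 and 1.92 in M. The libraries of the 3 stages did not overlap, though the highest maturing library (1.257) and the lowest mature one (1.267) nearly met. The cell types overlapped at mature only. These sums and ratios are descriptions and were not tested.

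The other genes of the pathway were taken from lists of 33 gene models, matched by RefSeq name and by the study's annotation, and 25 of them were tested. At SST 4 were higher and 2 lower in BS, against 1.64% and 1.44% of all genes tested. At maturing 7 were higher and 5 lower, against 4.82% and 3.56%, and at mature 5 and 2, against 3.66% and 2.07%. Their median log2 BS/M was -0.18, 0.16 and 0.00. NIR draws on ferredoxin. Of 9 models of ferredoxin and ferredoxin-NADP reductase (FNR), 1 was higher and 2 lower in BS at SST (1.64% and 1.44% of all genes), 3 and 2 at maturing (4.82% and 3.56%), and 2 and 1 at mature (3.66% and 2.07%). Of the 5 ferredoxin genes in the list, fdx5 and fdx6 were called at no stage. The mean of fdx3 was 1.52-fold, 2.02-fold and 2.16-fold higher in BS in stage order, without overlap of libraries. The FNR gene fnr1 overlapped at SST and was 6.68-fold and 1.64-fold higher in BS at maturing and mature. On the M side, L-FNRI was 2.26-fold, 2.15-fold and 1.44-fold lower in BS, without overlap. The ferredoxin gene fdx1 (GRMZM2G122337), the most abundant of the list, lay on the M side with NIR. At SST it was 4539 and 3593 scaled FPKM in BS, against 8672 and 12020 in M. At maturing fdx1 was 6377 and 6611 in BS, against 22025 and 21090 in M, and at mature 5319 and 4136 in BS, against 9652 and 11330 in M. Its log2 BS/M was -1.34 (limma adjusted p = 0.0095), -1.73 (adjusted p = 0.0014) and -1.16 (adjusted p = 0.0116, not passed).

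A second ferredoxin gene, fdx2 (GRMZM2G048313), lay on the BS side, opposite NIR. At SST it was 1779 and 1616 scaled FPKM in BS, against 363 and 407 in M. At maturing fdx2 was 5687 and 4101 in BS, against 238 and 281 in M, and at mature 2719 and 6079 in BS, against 443 and 366 in M. Its log2 BS/M was 2.14, 4.22 and 3.33 (limma adjusted p = 0.0085, 0.00017 and 0.00088). The FNR gene L-FNRII (GRMZM2G059083), whose product links ferredoxin to NADPH at the thylakoid, went with NIR at -2.14, -1.90 and -1.53 (adjusted p = 0.0021, 0.0013 and 0.0050). Reads of similar ferredoxin or reductase copies may have been divided between models, which the sources used here do not settle.

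Sulfite reductase is the sister enzyme of nitrite reductase, since it also carries sirohaem and also takes electrons from ferredoxin, to reduce sulfite to sulfide. Its gene sir (GRMZM2G090338) lay on the opposite side from NIR. It was 73.8 and 84.6 scaled FPKM in SST BS, against 12.7 and 16.8 in SST M. At maturing it was 145 and 142 in BS, against 16.4 and 11.7 in M, and at mature 168 and 193 in BS, against 29.6 and 37.4 in M. The mean was 5.37-fold, 10.2-fold and 5.39-fold higher in BS, and log2 BS/M was 2.42, 3.35 and 2.43 (limma adjusted p = 0.00089, 5.7e-05 and 0.00041). Within each stage every BS library was above every M library for sir, while for NIR every BS library was below.

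**Figure D4:**
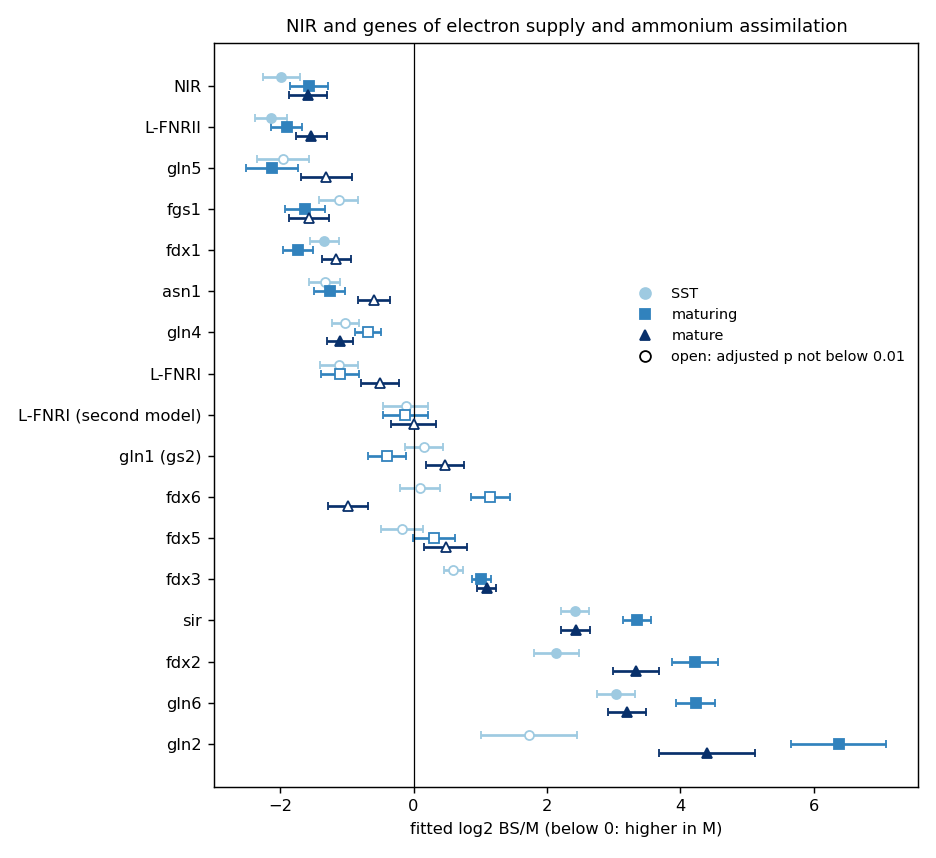
Fitted log2 BS/M (x axis, below 0 higher in M) with bars of 1 standard error for NIR and for the 16 pathway genes with a mean of at least 20 scaled FPKM over all libraries (y axis), at SST, maturing and mature. Filled symbols passed the test. NIR, L-FNRI, L-FNRII, fdx1, fgs1, asn1, gln4 and gln5 were on the M side, whereas sir, fdx2, fdx3, gln2 and gln6 were on the BS side.

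Ammonium from NIR is taken up by glutamine synthetase and then by glutamate synthase. The ferredoxin-dependent glutamate synthase gene fgs1 (GRMZM2G036609) was 33.3 and 34.5 scaled FPKM in SST BS, against 71.7 and 76.7 in SST M. At maturing fgs1 was 70.5 and 81.1 in BS, against 235 and 233 in M, and at mature 57.3 and 28.6 in BS, against 102 and 143 in M. It passed the test at maturing, at -1.63 (limma adjusted p = 0.0076), and not at SST (-1.12, adjusted p = 0.050) or mature (-1.57, adjusted p = 0.0114). Of 7 glutamine synthetase models, 2 were higher in BS at SST, 3 at maturing and 2 at mature, against 1.64%, 4.82% and 3.66% of all genes. At the same stages 0, 1 and 1 were lower, against 1.44%, 3.56% and 2.07%. Those called at more than 1 stage were all higher in BS, namely gln6 (3.03, 4.23 and 3.20 on the log2 scale, all called), gln2 (called at maturing and mature, 6.37 and 4.40) and gln3 (called at SST and maturing, 3.81 and 5.90). In contrast gln4 and gln5 lay on the M side with NIR, with no overlap of libraries at any stage. In stage order their means were 2.06-fold, 1.61-fold and 2.16-fold lower in BS for gln4, and 3.93-fold, 4.07-fold and 2.53-fold lower for gln5. The plastid form gln1 (GRMZM2G098290), the most abundant of the list, had log2 BS/M of 0.16, -0.40 and 0.47, none of which passed.

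Few genes upstream of the reductases were listed. RefSeq matched 18915 of 110005 identifiers, so these lists are not a survey of maize nitrate transporters or nitrate regulators. Of 7 models of nitrate transport, 4 were listed at 0 in every library (both models of NRT1.1, nrt2.1 and nrt2.2), and NAR2.1, a partner protein of NRT2 transporters, reached at most 0.189 FPKM. The 2 that were tested, NRT1.2 and NAR2.2, averaged 0.203 and 0.547 scaled FPKM, and neither was called between cell types. Of all genes tested, 1.64%, 4.82% and 3.66% were called higher in BS in stage order, and 1.44%, 3.56% and 2.07% lower. NLP8, of the NIN-like family of nitrate regulators, reached 0.109 FPKM and was not tested. Of 4 models of molybdenum cofactor synthesis, which nitrate reductase requires, 3 were tested and none was called between BS and M. CNX7, added from the study's annotation and so not chosen independently of these samples, averaged 6.0 scaled FPKM. Of 3 asparagine synthetase genes 2 were tested, and asn1 alone was called. It was lower in BS at maturing (-1.26, limma adjusted p = 0.0083), against 3.56% of all genes. With 2 or 3 genes tested in each of these lists, the absence of calls was not read as a result about them.

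Among 3279 named and moderately abundant genes, those whose log2 level over the 12 libraries was most like that of NNR1 were si606041a06 (GRMZM2G457929, Pearson r = 0.988), L-FNRII (r = 0.982) and TIFY25 (GRMZM2G116614, r = 0.975). For NIR they were pco066337a (GRMZM2G143469, r = 0.982), pco061770a (GRMZM2G077206, r = 0.975) and GRMZM2G060742 (r = 0.963). For GRMZM2G102959 they were cl19958_1 (GRMZM2G080450, r = 0.975), pco078765 (GRMZM2G078941, r = 0.964) and pco070684 (GRMZM2G041159, r = 0.964), and for NAR the closest was GRMZM5G894582 (r = 0.890). NNR1 and NIR correlated at 0.847, NNR1 and GRMZM2G102959 at -0.52, and NNR1 correlated at 0.972 both with the M marker carbonic anhydrase and with the epidermis marker ocl1, at 0.925 with PPDK and at 0.644 with the epidermis marker gl1. These describe 12 points that share 6 groups and their depth, and no p is given.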

How the data were processed

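BS and M cells were captured by laser microdissection at 3 stages, and 12 RNA-seq libraries were compared. The authors deposited 1 FPKM value per gene and library. The submitters' processing notes name CASAVA 1.3, TopHat2 2.0.10, Cuffdiff 2.1.1 and B73 RefGen_v3 without roles, whereas the paper names assembly v2. No read counts were used. Deposited FPKM summed to between 1009183 and 1551571 per library. The study tested counts with DESeq, which FPKM does not permit.

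Here all libraries were brought to the same upper quartile (2.557 FPKM), and limma 3.58.1 in R 4.3.3 (lmFit, eBayes with trend, 6 residual degrees of freedom) fitted the 6 group means of log2(value + 0.2557). The 32548 genes tested, of 47572 above 0, averaged 0.2557 or more in any group. The 9 comparisons were adjusted separately by Benjamini-Hochberg and called at 0.01. A pseudocount understates changes of low genes. Relative depth came from the spacing of low values, which whole reads set.

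The 5 reductase genes and all lists were chosen with earlier results of these data known. Pathway genes called at 2 or more stages were named, at most the 3 most abundant of a list. The genes fgs1, asn1, gln1, gln4, gln5, fdx3, fdx5, fdx6, L-FNRI, fnr1 and those at or near 0 were named after their values were seen. Lists came from RefSeq symbols (Zm-B73-REFERENCE-NAM-5.0, 18915 of 110005 identifiers matched); symbols gave no sirohaem gene and no PII gene. Scaling, pseudocount, filter, trend, threshold, separate fits, a replicate block and leaving out each library were tried. The fit was tested on simulated data. Python 3.11.15 and matplotlib 3.10.9 made tables and figures.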

Additional observations from a re-analysis of the deposited data

Results flagged for a closer look

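gln3, a glutamine synthetase gene, had a log2 BS/M that changed by -5.24 between mature and maturing, and this was the one pathway gene for which the test of the change itself passed (limma adjusted p = 0.0024). The following were singled out because all libraries of BS and of M moved in opposite directions, or because the higher cell type turned round, without overlap. Their change of log2 BS/M was tested in the same fit and did not pass. Between maturing and SST, BS moved up and M down for fdx2 (change of log2 BS/M 2.08), gln2 (4.64) and gln6 (1.19), and CNX7 turned from the M side to the BS side (2.63). Between mature and maturing, BS moved down and M up for fdx6, which also turned from the BS to the M side (-2.13), and for fnr1 (-1.84), and the second model of gln1 turned from the M to the BS side (2.06). None of the 5 reductase genes was among them.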

How the results depend on the processing

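Counts of reductase genes called, 2, 2 and 1 in BS against M at SST, maturing and mature, depended on settings that barely moved the fitted values. Without the filter on low values they were 1 (NIR), 0 and 0. Without the trend they were 1, 0 and 0, and that 1 was GRMZM2G428027, higher in BS (log2 2.17, limma adjusted p = 0.0095), while NNR1 and NIR were lost. The SST count of 2 under deposited values and under median-of-ratios scaling was NIR, lower in BS, and GRMZM2G428027, higher in BS, with NNR1 lost. The calls of GRMZM2G428027 carry the limits given above, from the filter and from M groups listed at 0. With separate fits for each comparison they were 0, 1 and 0. With deposited values or median-of-ratios scaling the maturing count was 0. At an adjusted p below 0.05 the mature count was 2. For the steps along the leaf (1 and 1 in BS, 0 and 1 in M), the second BS step gave 0 with a pseudocount of 1, without the filter and without the trend, and 3 at an adjusted p below 0.05. Separate fits gave 0 for both BS steps and for the second M step. The first M step gave 1 with deposited values, median-of-ratios scaling or a pseudocount of 1, and the first step gave 2 in BS and 2 in M at an adjusted p below 0.05. Leaving out 1 library at a time, the counts ranged over 0 to 2 in BS against M at each stage, 0 to 2 and 0 to 1 for the BS steps, 0 to 1 and 0 to 2 for the M steps, and were 0 for both changes of log2 BS/M.

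Over all genes, the counts in the same order (1003, 2729 and 1863; 3616 and 4672 in BS; 2717 and 4641 in M; 100 and 304 for the changes) became 3386, 5235 and 4726, then 6790 and 8162, then 5787 and 8161, then 637 and 1276 at an adjusted p below 0.05. Separate fits gave 0, 367 and 0, then 245 and 321, then 352 and 479, and 346 for the first change. Without the filter the first change gave 209. Leaving out a library gave 631 to 1236, 1563 to 2903 and 1066 to 2642, then 2399 to 3699 and 2992 to 4451, then 1444 to 2676 and 2738 to 4864, then 148 to 1519 and 290 to 1741.

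Replicate numbers were shared between groups, but 0 of 15 group pairs had deviations correlated above 0.1 (-0.042 to 0.023), so the numbers were not taken as pairs. With a replicate block the reductase counts in BS against M were 0, 0 and 0, the second BS step gave 0, and the changes over all genes gave 52 and 164. The cause was not tested.

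Signs turned only where the fitted value was small and a library was left out, as log2. NAR gave -0.69 to 0.14 at SST, -0.22 to 1.68 in the second BS step, -0.046 to 0.77 in the first M step and -1.16 to 0.74 in the second change. NIR gave -0.00031 to 0.65 in the second BS step, -0.41 to 0.40 in the first M step and -0.33 to 0.32 in the second change. NNR1 gave -0.39 to 1.06 in the second change, and GRMZM2G428027 gave -0.27 to 0.25 in BS against M at mature. The SE of the fitted difference was 0.70 for NAR and 0.39 for NNR1.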
